A study of Mus musculus with 6 samples.

Results

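The Fc gamma receptors bind the constant part of immunoglobulin G, and with it they tie antibody-coated cells, microbes and immune complexes to macrophages. The genes examined were the mouse receptors Fcgr1, Fcgr2b, Fcgr3 and Fcgr4, the signalling chain gene Fcer1g, and Fcgrt, which encodes the neonatal Fc receptor. They were chosen by symbol, with each gene read through its brightest probe set among those that the platform annotation gives exactly 1 symbol. Of the 6 genes, 5 had such a probe set, 1 each, out of 19938 genes read in this way. The expression of Fcgrt was not analysed here.

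The cells were tumour-associated macrophages, that is macrophages that live inside a tumour, of C57BL/6 mice whose livers carried implanted hepa1-6 tumours, grown from a mouse hepatoma line. There were 3 Affymetrix Mouse Gene 1.0 ST arrays from mice given PLX3397, a small molecule that blocks CSF1R along with KIT and FLT3, and 3 from mice given vehicle. The cells of both groups were sorted by flow cytometry before RNA extraction. The labels give no dose, duration, age, sort markers or pooling, and call the samples biological replicates without naming animals, so the spread behind each p-value is that between these samples and may be technical. A second name in the description fields, of macrophages given IL4 for the PLX3397 samples and LPS with interferon-gamma for the vehicle samples, disagrees with the other labels and was not used for grouping.

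Values are the deposited log2 values, and changes are PLX3397 minus vehicle on that scale with the standard error (SE) of a limma fit across all genes. A gene was called where its p-value was below 0.05 after Benjamini-Hochberg adjustment over the whole table. The background level, below which lay 95% of 1194 genes for odour and pheromone receptors, was between 3.52 and 3.58 over the arrays. In such bulk samples, fewer cells of a type and less RNA per cell cannot be told apart.

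The macrophage receptors fall into activating and inhibitory ones. In mice Fcgr1 encodes the high-affinity receptor, and Fcgr3 and Fcgr4 encode lower-affinity activating receptors. These 3 carry no activating motif of their own and depend on the gamma chain, the product of Fcer1g, whose immunoreceptor tyrosine-based activation motif (ITAM) is phosphorylated by Src-family kinases and recruits the kinase Syk. Fcgr2b encodes the inhibitory receptor, which recruits the lipid phosphatase encoded by Inpp5d and dampens activating signals when both are engaged by the same immune complex.

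The 5 measured genes were all called, in opposite directions. With PLX3397 the activating receptor gene Fcgr3 was 3.19-fold higher and the inhibitory receptor gene Fcgr2b 1.48-fold higher. The other activating receptor genes Fcgr4 and Fcgr1 were 2.08-fold and 1.73-fold lower, and the shared chain gene Fcer1g was 1.43-fold lower. A call is common in these data, since 37.8% of all genes were called, 19.6% as higher and 18.3% as lower. Among the 894 genes with a mean level of at least 9, 66.6% were called and the median change was 0.04. The calls are therefore read by their sizes and directions, and not by their number. Changes of at least 1 log2, as in Fcgr3 and Fcgr4, were found in 7.35% of all genes.

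Among the activating receptors, Fcgr3 had the largest change of the 5 genes. Its values were 10.93, 11.23 and 11.18 on the PLX3397 arrays, against 9.48, 9.42 and 9.43 on the vehicle arrays. The vehicle arrays lay within 0.06 of each other, and every PLX3397 array was far above them. The change was 1.67 (SE 0.09, 95% interval 1.46 to 1.89, limma adjusted p = 5.26e-07), larger than 98.6% of the signed changes of all genes.

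Fcgr4, whose product binds the mouse subclasses IgG2a and IgG2b, had values of 8.34, 9.03 and 8.71 with PLX3397, against 9.92, 9.66 and 9.66 with vehicle. The PLX3397 arrays spread over 0.69, the widest range of any of the 5 genes in either group, but all lay below the vehicle arrays. Fcgr4 fell by 1.06 (SE 0.16, 95% interval -1.40 to -0.71, limma adjusted p = 3.62e-04).

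Fcgr1, the high-affinity receptor gene and a known target of interferon-gamma, had values of 8.77, 9.37 and 8.94 with PLX3397, against 9.96, 9.84 and 9.66 with vehicle. The groups did not overlap, with a gap between the highest PLX3397 array and the lowest vehicle array that was narrow beside the spread within the PLX3397 group. Fcgr1 fell by 0.79 (SE 0.15, 95% interval -1.12 to -0.47, limma adjusted p = 0.0016).

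The inhibitory receptor gene Fcgr2b had values of 11.63, 11.80 and 11.75 with PLX3397, against 11.24, 11.07 and 11.18 with vehicle. It rose by 0.56 (SE 0.09, 95% interval 0.37 to 0.75, limma adjusted p = 4.65e-04), with every PLX3397 array above every vehicle array. The gamma chain gene Fcer1g had values of 11.99, 12.10 and 11.90 with PLX3397, against 12.47, 12.55 and 12.52 with vehicle. It fell by 0.52 (SE 0.08, 95% interval -0.70 to -0.33, limma adjusted p = 7.01e-04), with vehicle arrays that were again close together.

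**Figure D1:**
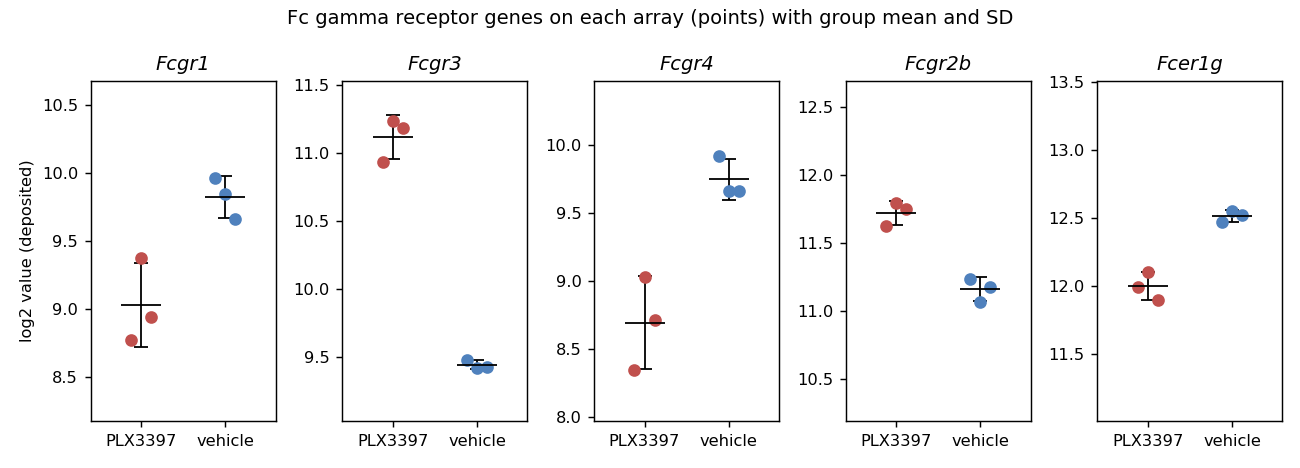
Deposited log2 values of the 5 measured genes on each array (points, 3 per group), with the group mean and SD (bars), PLX3397 on the left and vehicle on the right of each panel; every panel spans the same number of log2 units. Fcgr3 and Fcgr2b lie higher with PLX3397 and Fcgr1, Fcgr4 and Fcer1g lower, and no gene has overlapping groups.

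The groups did not overlap for any of the 5 genes, which was also the case for 49.3% of all genes. Within the PLX3397 group array 2 was the highest for 5 of 5 and array 1 the lowest for 4 of 5, the exception being Fcer1g. The share of all genes with this order was not computed, so it is not read as a trait of these genes. Syk, Ptpn6 and Csf1r were also highest on array 2 of that group, while Fgr and Tgfb1 were highest on array 1. In the vehicle group array 1 was the highest for 4 of 5, and ranges within the group were 0.06 to 0.30, against 0.17 to 0.69 in the PLX3397 group. Fcgr2b and Fcgr3 are known to have closely similar extracellular parts. Whether their probe sets share probes could not be checked here, so the values of these receptors are uncertain as far as each may pick up the other's transcript.

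The balance between activating and inhibitory receptor was read as the log2 difference between a pair of genes on each array, of which only the shift between groups has a meaning. The 6 pairs compared were Fcgr1, Fcgr3 and Fcgr4 against Fcgr2b and against Fcer1g. The SE of a pair comes from its differences on the 3 arrays of each group, without the limma fit. The smallest two-sided p that an exact permutation test of 3 against 3 arrays can give is 0.1, and 0.12 after adjustment over the 6 pairs, so no pair could pass a threshold of 0.05. Relative to Fcgr2b, Fcgr3 was higher with PLX3397 by 1.11 (SE 0.06), although Fcgr2b rose itself. Relative to Fcgr2b, Fcgr4 and Fcgr1 shifted with PLX3397 by -1.62 (SE 0.16) and -1.36 (SE 0.16). In each of these 3 pairs the groups were fully apart (exact permutation p = 0.1 each). For Fcgr4 and Fcgr1 this had to follow, since both genes of the pair were already fully apart, in opposite directions. Their p-values therefore add nothing to the values of the single genes.

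Against the chain gene the picture was less even. Fcgr3 shifted by 2.19 relative to Fcer1g (SE 0.11, exact permutation p = 0.1), so the receptor transcript rose while that of its chain fell. This separation also had to follow, since both genes were already fully apart in opposite directions. Fcgr4 shifted by -0.54 relative to Fcer1g (SE 0.21, exact permutation p = 0.1). Fcgr1 shifted by -0.28 (SE 0.18, exact permutation p = 0.2), or by -0.15 without PLX3397 replicate 1, -0.18 without vehicle replicate 1 and -0.12 with quantile normalisation. There the groups overlapped, so its fall was not separated from that of the chain at this number of arrays.

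**Figure D2:**
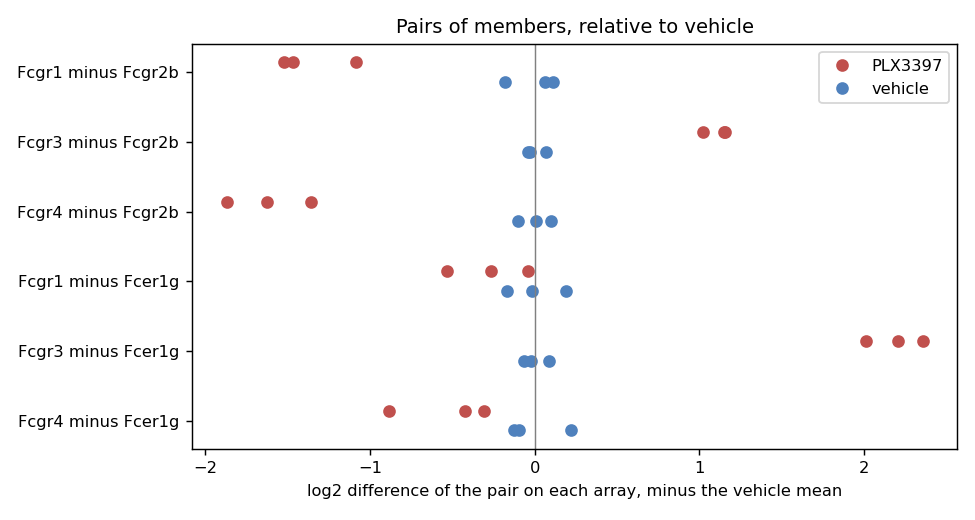
Log2 difference between the genes of each pair on each array, minus the mean of the vehicle arrays, with PLX3397 arrays (red) drawn above vehicle arrays (blue) in each row. Only Fcgr1 minus Fcer1g has overlapping groups, and Fcgr3 stands on the other side of 0 from Fcgr1 and Fcgr4 in both comparisons.

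The sequences before the start sites are shown as a description, and their part in the changes of these genes was not tested. RefSeq promoters (GRCm38.p6) matched all 6 genes, and the 250 bases before each start were searched on both strands for 4 motifs. These were the interferon-gamma activated site TTCNNNGAA (present in 7.02% of 32851 promoters of this length), the STAT6-type site TTCNNNNGAA (5.85%), the interferon response core GAAANNGAAA (2.98%) and GAGGAA, the core bound by the macrophage factor PU.1 (23.3%). Matches are in capitals, and the sequences run 5′ to 3′ on the strand of the gene. Fcgr1 is on the minus strand at chr3:96293970-96294219, Fcgr4 on the plus strand at chr1:171018676-171018925, and Fcgr3, from the nearer to Fcgr2b of its 2 listed starts, on the minus strand at chr1:171059395-171059644.
Fcgr1: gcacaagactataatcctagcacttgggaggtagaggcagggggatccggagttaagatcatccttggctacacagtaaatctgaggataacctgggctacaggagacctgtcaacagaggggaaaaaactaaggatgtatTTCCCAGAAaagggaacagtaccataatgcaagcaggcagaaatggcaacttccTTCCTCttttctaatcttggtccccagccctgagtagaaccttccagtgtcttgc
Fcgr4: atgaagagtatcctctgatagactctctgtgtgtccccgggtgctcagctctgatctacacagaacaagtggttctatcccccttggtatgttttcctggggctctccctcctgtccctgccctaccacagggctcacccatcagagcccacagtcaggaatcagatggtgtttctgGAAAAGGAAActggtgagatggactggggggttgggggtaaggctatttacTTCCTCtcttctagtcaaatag
Fcgr3: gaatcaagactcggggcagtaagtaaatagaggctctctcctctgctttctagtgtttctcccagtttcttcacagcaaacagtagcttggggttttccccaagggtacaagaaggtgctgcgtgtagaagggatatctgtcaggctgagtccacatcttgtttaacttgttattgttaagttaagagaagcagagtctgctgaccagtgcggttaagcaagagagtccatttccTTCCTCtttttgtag

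Fcgr1 held TTCCCAGAA, a match to the interferon-gamma activated site beginning 109 bases before the start, and TTCCTC, the reverse of the PU.1 core, at 55 bases. Fcgr4 held GAAAAGGAAA, a match to the interferon response core, at 73 bases and TTCCTC at 22 bases. Fcgr3 held only TTCCTC, at 15 bases. It lies in a run, ttccttcctctttt, of 14 bases that Fcgr1 and Fcgr3 share. No other pair of different genes among the 6 shared a run of more than 9 bases. None of the 4 motifs was found in the windows of Fcgr2b, Fcer1g and Fcgrt. A match is a stretch of letters, and binding was not measured here.

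Fcgr2b, Fcgr4, Fcgr3 and Fcer1g lie near each other on chromosome 1, and Fcgr1 lies alone on chromosome 3. Of the 23 protein-coding genes from 5 before the Fc receptor-like gene Fcrla to 5 after Fcer1g, 19 were measured. The neighbours did not move as a block. Fcgr4, which fell, stands between Fcgr2b and Fcgr3, which rose. Of the 15 measured genes in this stretch that are no Fc gamma receptor or chain gene, 3 were higher, 6 lower and 6 were not called. Fcrla, next to Fcgr2b among the measured genes, was below background on all arrays, and its neighbour Fcrlb had the largest change of the stretch.

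**Figure D3:**
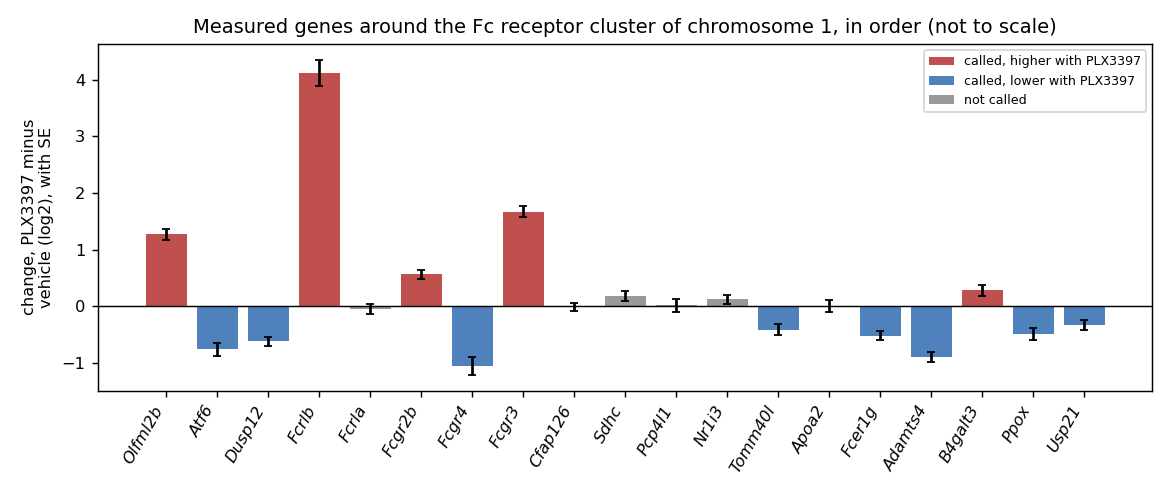
Change of each measured gene around the Fc receptor cluster, PLX3397 minus vehicle in log2, with the SE of the limma fit; genes stand in chromosome order, evenly spaced, and are coloured by call. Fcrlb, Fcgr2b and Fcgr3 point up, Fcgr4 and Fcer1g point down, and of the genes between Fcgr3 and Fcer1g, Tomm40l is called, as lower.

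Fc receptor-like genes and other receptors for immunoglobulin included some of the largest changes near this family. Of 12 measured genes of that list, 4 rose, 1 fell and 7 did not pass, with a median change of 0.10, against 0.04 for all genes. The share called was 41.7%, near the 37.8% of all genes, and 5 of the 12 were below background on all arrays. Fcrlb, which encodes a relative of the Fc receptors that stays inside the cell, had values of 8.38, 9.34 and 8.88 with PLX3397, against 5.07, 4.32 and 4.85 with vehicle. Every PLX3397 array was above every vehicle array, and the change was 4.12 (SE 0.24, limma adjusted p = 5.74e-07). Fcrls, a receptor-like gene best known from mouse microglia, rose by 2.59 (SE 0.18) and Lgals3, a galectin that binds immunoglobulin E among other ligands, by 1.47 (SE 0.08). Trim21, the antibody receptor of the cytosol and an interferon-induced gene, fell by 1.63 (SE 0.10).

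Other receptors that signal through the gamma chain did not as a set follow the fall of Fcer1g. Of 10 measured genes of that list 4 rose, 1 fell and 5 did not pass, with a median change of 0.10. The share called was 50%, against 37.8% of all genes. Among those that did not pass, 3 (Fcer1a, Ncr1 and Oscar) were below background on all arrays, so their direction cannot be read. Clec4n, the gene of the fungal mannan receptor Dectin-2, had values of 12.09, 11.80 and 12.10 with PLX3397, against 7.96, 7.90 and 8.48 with vehicle, a change of 3.89 (SE 0.15, limma adjusted p = 4.35e-08). Tarm1, an activating receptor gene of myeloid cells, rose by 2.22 (SE 0.08). Csf2rb, the common beta subunit gene of the receptors for GM-CSF and IL3, which pairs with the gamma chain in basophils, rose by 1.84 (SE 0.08). Clec4e, the gene of the glycolipid receptor Mincle, fell by 1.50 (SE 0.10). The chain gene thus fell with Fcgr1, Fcgr4 and Clec4e and opposite to Fcgr3, Clec4n and Tarm1.

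Of 9 other chains with an activation motif or an equivalent, 3 rose and 0 fell as deposited. The share called was 33.3%, near the 37.8% of all genes, and 4 of the 9 were below background on all arrays. Tyrobp, which encodes DAP12, the other main chain of this kind in macrophages, had means of 10.12 ± 0.14 with PLX3397 and 10.12 ± 0.13 with vehicle (SD, n = 3 each; limma adjusted p = 0.992, 95% interval of the change -0.23 to 0.22). Hcst, which encodes DAP10, rose by 0.81 (SE 0.12) and Cd79b, a B cell receptor chain gene, by 0.62 (SE 0.11). The third, Cd79a, was below background on all arrays (3.28 ± 0.15 with PLX3397 and 2.97 ± 0.17 with vehicle). With arrays centred on their medians, 2 rose and 1 fell.

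Downstream activating genes went both ways. Of 27 measured genes 9 rose, 11 fell and 7 did not pass, with a median change of 0.04. All 27 were above background on all arrays, and of the 12709 genes of that kind 52.7% were called. Syk, the kinase that docks on the gamma chain, had means of 9.97 ± 0.06 with PLX3397 and 9.97 ± 0.02 with vehicle (SD, n = 3 each), a change of 0.00 with a 95% interval of -0.17 to 0.18 (limma adjusted p = 0.980). Pik3r5, a regulatory subunit gene of the gamma class of phosphoinositide 3-kinase, fell by 1.29 (SE 0.08). Pik3cb, a catalytic subunit gene of a different form of that kinase, rose by 1.10 (SE 0.09). The adaptor gene Blnk fell by 1.08 (SE 0.08) and the kinase gene Tec rose by 1.00 (SE 0.12).

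The inhibitory side was likewise mixed, with 6 of 22 genes higher, 9 lower, 7 not called and a median change of -0.19. Calls made up 68.2% of this list, against 52.7% of all genes above background on all arrays. Inpp5d, the phosphatase gene of the Fcgr2b pathway, rose with Fcgr2b, by 0.41 (SE 0.10, limma adjusted p = 0.010). Ptpn6, the tyrosine phosphatase used by many other inhibitory receptors, changed by -0.22 (SE 0.08) and did not pass as deposited (limma adjusted p = 0.051), but passed with arrays centred on their medians (limma adjusted p = 0.0080). The inhibitory receptor genes Pirb and Lair1 fell by 1.93 (SE 0.08) and 1.45 (SE 0.11), the adaptor gene Sla by 1.65 (SE 0.08) and Rasa1, which switches off Ras, by 1.44 (SE 0.09). Pirb belongs to a family of closely similar genes and may share probes with them.

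Genes of the phagocytic cup, the actin machinery that engulfs an antibody-coated target, rose in 8 of 28 cases and fell in 10, with 10 not called and a median change of -0.09. As deposited 64.3% of this list were called, against 52.7% of all genes above background on all arrays. With arrays centred on their medians, 6 rose and 14 fell. The actin-severing gene Gsn rose by 1.29 (SE 0.09) and the lipid kinase gene Pip5k1c by 1.18 (SE 0.08). The adaptor gene Fyb fell by 1.35 (SE 0.13) and Elmo1, which activates Rac, by 1.02 (SE 0.11).

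The partners of the neonatal Fc receptor, which salvages immunoglobulin G from endosomes, were mostly lower where they passed. Of 17 genes of its subunit, trafficking and other cargo 9 fell, 1 rose and 7 did not pass, with a median change of -0.34. The share called, 58.8%, was near the 52.7% of all genes above background on all arrays. The number of calls is therefore not read as a trait of this list, and Fcgrt itself was not measured. The rise was that of B2m, the light chain gene of that receptor and of MHC class I, by 0.39 (SE 0.08, limma adjusted p = 0.0023), or by 0.24 with quantile normalisation (limma adjusted p = 0.029). The motor gene Myo5a fell by 0.97 (SE 0.12), the retromer gene Vps35 by 0.75 (SE 0.13), the early endosome gene Rab5a by 0.64 (SE 0.09) and the sorting nexin gene Snx4 by 0.56 (SE 0.10).

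**Figure D4:**
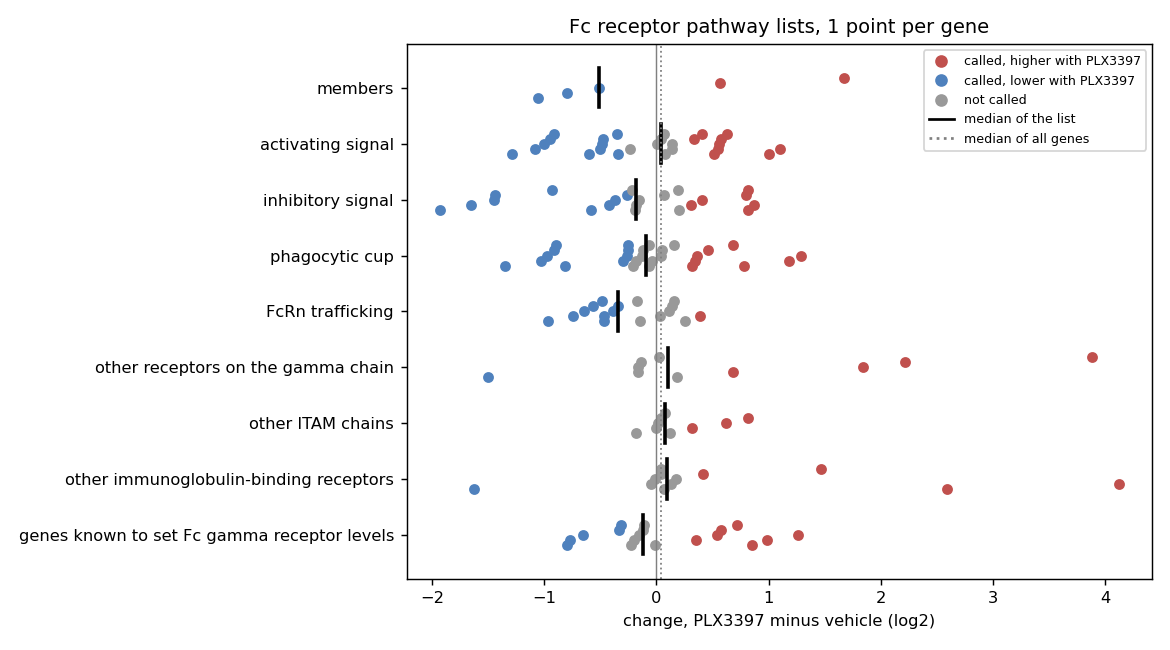
Change of each measured gene, PLX3397 minus vehicle in log2, by list (1 point per gene, coloured by call), with the median of the list (black) and of all genes (dotted). The Fc gamma receptor genes form a lower group of 3 and an upper group of 2, the signalling and phagocytic cup lists spread to both sides, and the neonatal Fc receptor list lies mostly below 0.

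Cytokine pathways known to set Fc gamma receptor levels were read through 18 measured genes, of which 7 rose, 5 fell and 6 did not pass (6 and 7 with arrays centred on their medians). As deposited 66.7% were called, against 52.7% of all genes above background on all arrays. In macrophages interferon-gamma is known to raise Fcgr1 and Fcgr4, and IL4, IL10 and TGF-beta are known to shift the balance in other ways. Irf1, a transcription factor gene induced by interferon-gamma, fell by 0.79 (SE 0.11), in the direction of Fcgr1 and Fcgr4, while Irf8, which encodes another factor of the family, rose by 0.85 (SE 0.10). Il13ra1, a receptor subunit gene for IL4 and IL13, rose by 1.26 (SE 0.12) and the cytokine gene Tgfb1 by 0.99 (SE 0.08).

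The genes whose values ran most closely with each Fc receptor gene were found by Pearson correlation over the 6 arrays. Each was compared with 12999 other genes above background on all arrays of at least 1 group, with predicted and provisionally named genes left out. With 2 groups the correlation mostly reflects the difference between them, and it is given as a description. Fcgr3 ran most closely with Abhd4 (r = 0.9998), Il13 and Tmem191c, and 1555 genes reached r of 0.95. Fcgr2b ran with Necap2 (0.9993), Mkrn1 and Homer3, and Fcer1g with Rnf14 (0.9999), Aimp1 and Mzt1. Fcgr1 ran with Fam204a (0.9985), Snrpa and H2-T24, and Fcgr4 with Tgfbr1 (0.9968), Psma5 and Elp3. Fewer genes reached 0.95 with these last receptors, 330 for Fcgr1 and 442 for Fcgr4, against 1224 for Fcgr2b and 2030 for Fcer1g.

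Fc gamma receptors are carried by cells other than macrophages, and markers of these were read on the same arrays. The summed level of a list is the log2 of the sum of its unlogged values, so its brightest genes set it. Calls made up 55.6% of the macrophage list, 50% of the liver sinusoidal endothelium list and 44.4% of the B cell list. The share was 40% for mast cells and basophils, 33.3% for neutrophils, 30% for dendritic cells and 10% for NK cells. Over all genes it was 37.8%, so the numbers of calls are not read as a result about these cells. Of 9 macrophage markers 3 rose and 2 fell, with a summed level of 14.35 to 14.44 with PLX3397, against 14.28 to 14.29 with vehicle. Csf1r had means of 11.05 ± 0.11 with PLX3397 and 10.96 ± 0.02 with vehicle (SD, n = 3 each), Lyz2 means of 12.56 ± 0.06 and 12.75 ± 0.01, while Adgre1 and Mertk fell by 0.42 and 0.37, and Mrc1, Itgam and Cd14 rose by 1.26, 0.97 and 0.55. Of 12 markers of liver sinusoidal endothelium, a known site of Fcgr2b, 6 rose, namely Kdr (1.70), Pecam1 (1.60), Vwf (1.30), Cdh5 (1.03), Oit3 (0.45) and Cldn5 (0.33), and their summed level was 9.09 to 9.15 with PLX3397, against 8.04 to 8.13 with vehicle. Of the genes more particular to that endothelium, Oit3 was above background on all arrays and Stab2, Lyve1 and Clec4g were at the background level in both groups. Gpr182 and Dnase1l3 were below it on all arrays. Of 10 mast cell and basophil markers 4 rose, led by Hdc (3.59), Gata2 (3.22) and Kit (1.08). The summed level of the list was 8.59 to 9.09 with PLX3397, against 6.73 to 6.89 with vehicle. Fcer1a, Ms4a2, Cpa3 and Mcpt8 were below background on all arrays.

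Of 9 B cell markers 4 rose, led by Cd22 (1.29). The summed level was 8.37 to 8.42 with PLX3397, against 7.49 to 7.53 with vehicle. Cd22, Cd79b, Pax5 and Blk were above background on all arrays. The rises included Cd79a and Ms4a1, which were below background on all arrays. Of 10 dendritic cell markers 3 rose and 0 fell, led by Ccr7 (3.35). The summed level was 8.62 to 9.20 with PLX3397, against 7.99 to 8.15 with vehicle. The rises included Itgae, which was below background on all arrays, as were Xcr1, Clec9a and Siglech. Of 12 neutrophil markers 3 rose and 1 fell, with a summed level of 12.61 to 12.83, against 12.56 to 12.58 with vehicle. This level was mostly that of Lcn2, with means of 12.53 with PLX3397 and 12.34 with vehicle, and Lcn2 was not called. S100a8 rose by 1.52 and Csf3r fell by 1.55. The other rises were those of Ltf and Ly6g, which were below background on all arrays, as was Cxcr2. Of 10 NK cell markers 9 were below background on all arrays, with a summed level of 6.38 to 6.46, against 6.34 to 6.42 with vehicle. The part of these cells in the changes of the Fc receptor genes was not tested.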

How the data were processed

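The members and gene lists were chosen with earlier results of these data known. Per the labels' protocols, total RNA of sorted macrophages was labelled with biotin for the arrays. The values deposited by the authors are log2 values, 1 per probe set. The base was taken from the values, 1.57 to 13.5, and how they were summarised and normalised is not given in the sources used here. Per the submitters' processing notes MAS5 was a tool used, with no version or role.

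Values were used as deposited, since array medians differed by less than 0.5. Of 28941 probe sets, 21789 carried 1 symbol, 1621 several and 5531 none. Symbols were matched to RefSeq by Entrez identifier for 21698 probe sets. Genes (19938) entered 1 limma fit (version 3.58.1, R 4.3.3, two-sided) with no covariate. The step was tested on simulated data. Precision is limited by the 3 arrays of each group. Pearson correlations over genes were at least 0.992 within PLX3397, at least 0.996 within vehicle and at most 0.961 between groups. Array batches could not be tested. No columns of other samples were present.

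From each list the text names up to 4 called genes with the largest changes and no overlap, with Syk, Inpp5d, Ptpn6, B2m and Tyrobp always. From marker lists it names bright, large or defining genes, the last chosen after values were seen. The 3 best-correlated genes per receptor gene are named. The range along chromosome 1, the list of shared promoter runs and the motif search were added after values were seen. Promoters were searched in Python 3.11.15. Alternatives were quantile normalisation, centring, 3 filters on dim genes, a replicate block, array weights, a variance trend, averaging of probe sets, a threshold of 0.01 and leaving out each array.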

Additional observations from a re-analysis of the deposited data

How the results depend on the processing

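The 5 Fc receptor genes were called in the same direction under every alternative run, with changes of 1.56 to 1.77 for Fcgr3, -1.22 to -0.88 for Fcgr4, -0.97 to -0.66 for Fcgr1, 0.45 to 0.61 for Fcgr2b and -0.65 to -0.47 for Fcer1g. Their highest limma adjusted p over the alternatives was 0.0095, for Fcgr1. For the counts of calls, the 5 genes and the 6 pairs, 302 values were recomputed. Of these 300 stayed on the same side of the threshold, or, for counts, near the count reported, and, for pairs, within the SD between arrays. The exceptions were the count of other chains with an activation motif and the shift of Fcgr3 relative to Fcer1g. That count was 1 with a mean level above 5, a filter that left out Cd79a and Cd79b. The shift of Fcgr3 relative to Fcer1g was 2.35 with quantile normalisation, where the cause was not tested. The shift of Fcgr1 relative to Fcer1g ran from -0.40 to -0.12. Of the genes named for their role, Ptpn6 passed with centring (limma adjusted p = 0.0080). Centring arrays on their medians moved the median change of all genes to -0.07, against 0.04 as deposited, and the share of calls that were higher to 34.2%, against 51.7%. The replicate numbers did not pair the arrays, with correlations of deviations between same-numbered arrays of -0.01, 0.01 and -0.01. With the replicate block 7154 genes were called, against 7539, and all 5 Fc receptor genes. Signal over background limits what can be read, and 5394 genes were below background on all arrays.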
